A study of Mus musculus with 11 samples.

Results

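Expression of 9 transcription factor genes that pattern the diencephalon and thalamus, Irx1, Irx2, Irx3, Irx5, Tcf7l2, Lhx9, Barhl2, Gbx2 and Sim1, was followed in mouse brain cells with and without Kif20a, the gene of a mitotic kinesin. The genes were taken by symbol, and all 9 were found among the 20475 genes of the tables. RNA-seq had been done at embryonic day 12.5 in 2 comparisons, one with 3 wild-type and 3 germline knockout libraries, the other with 2 control and 3 inducible knockout libraries. The labels name the tissue forebrain and the cells neural, whereas the study describes cortical cells of littermates, and no sorting is mentioned. The germline knockout embryos carried the Kif20a knockout-first allele, which keeps a LacZ and neomycin cassette and comes from a single ES cell clone. The inducible knockout combined Nestin-CreERT2, active in neural stem and progenitor cells, with Kif20a fl/fl after tamoxifen had been given to the pregnant mice on consecutive days. The labels call the inducible controls wild-type, and elsewhere for this cross the study names Kif20a fl/fl littermates without the Cre transgene. Values are normalized counts, that is reads per gene made equal in scale between the libraries of one table. The tables were normalized apart, so no level was compared across them.

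The thalamus, habenula and pretectum arise from the diencephalon, the part of the forebrain behind the telencephalon from which the cortex forms. The Iroquois genes (Irx) encode homeodomain factors of the caudal diencephalon and more caudal brain, and their anterior limit meets the zona limitans intrathalamica (ZLI), the boundary that secretes Shh between thalamus and prethalamus. Tcf7l2 encodes a nuclear effector of canonical Wnt signalling that is abundant in the thalamus and habenula. Gbx2 and Lhx9 encode homeodomain factors of postmitotic thalamic neurons, Barhl2 a homeodomain factor needed for the ZLI, and Sim1 a bHLH-PAS factor of the hypothalamus. Some of these genes are also used in the telencephalon: Lhx9 and Barhl2 in the embryonic pallium and its borders, and Gbx2 in the medial ganglionic eminence.

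In the mouse assembly NCBIM37 (mm9), the build of the files, with GENCODE M1 gene models, the Iroquois genes lie on 2 chromosomes. Irx1 (minus strand, chr13:72095680-72101171) is linked to Irx2 (plus strand, chr13:72766245-72771644), and Irx3 (minus strand, chr8:94322428-94325553) is linked to Irx5 (plus strand, chr8:94881695-94885351). The other members are unlinked to these pairs: Tcf7l2 (plus strand, chr19:55816300-56008144), Lhx9 (minus strand, chr1:140721763-140745153), Gbx2 (minus strand, chr1:91824537-91829865), Barhl2 (minus strand, chr5:106881533-106887469) and Sim1 (plus strand, chr10:50615457-50708958). An antisense transcript shares 124 of the exon bases of Irx3, or 5.29%, and another shares 1372 of those of Gbx2, or 32.4%. Use of strand in the counting is not given in the sources used here, so these reads cannot be told apart.

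RefSeq promoter sequences (table of GRCm38.p6) were held for 7 of the 9 genes. The 250 bases before the most upstream RefSeq start are shown for Irx2, Irx3 and Tcf7l2, which were highest together in a single knockout library, and for Sim1, which was not. Each was located by an exact and unique match in NCBIM37. Irx2 lies at chr13:72766018-72766267 on the plus strand, where 23 of its bases overlap the first Irx2 exon of GENCODE. Irx3 lies at chr8:94325554-94325803 on the minus strand, Tcf7l2 at chr19:55816050-55816299 on the plus strand and Sim1 at chr10:50615207-50615456 on the plus strand, all 3 outside annotated exons. RefSeq has a further start for Tcf7l2 within the gene, whose window at chr19:55969561-55969810 is not printed. Capitals mark the single match found.
Irx2: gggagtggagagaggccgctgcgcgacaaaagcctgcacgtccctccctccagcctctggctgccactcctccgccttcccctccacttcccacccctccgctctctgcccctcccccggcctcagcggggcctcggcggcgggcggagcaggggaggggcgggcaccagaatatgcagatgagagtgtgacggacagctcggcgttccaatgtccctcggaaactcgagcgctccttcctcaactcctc
Irx3: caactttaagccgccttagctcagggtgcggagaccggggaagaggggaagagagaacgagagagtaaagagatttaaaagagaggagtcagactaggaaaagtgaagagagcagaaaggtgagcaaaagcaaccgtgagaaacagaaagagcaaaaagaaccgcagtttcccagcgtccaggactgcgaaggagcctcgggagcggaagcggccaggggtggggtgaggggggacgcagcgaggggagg
Tcf7l2: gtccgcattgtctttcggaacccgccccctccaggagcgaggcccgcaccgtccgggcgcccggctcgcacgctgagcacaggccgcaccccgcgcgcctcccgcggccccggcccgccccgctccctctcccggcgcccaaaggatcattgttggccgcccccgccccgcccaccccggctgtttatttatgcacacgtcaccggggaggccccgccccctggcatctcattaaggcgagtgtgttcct
Sim1: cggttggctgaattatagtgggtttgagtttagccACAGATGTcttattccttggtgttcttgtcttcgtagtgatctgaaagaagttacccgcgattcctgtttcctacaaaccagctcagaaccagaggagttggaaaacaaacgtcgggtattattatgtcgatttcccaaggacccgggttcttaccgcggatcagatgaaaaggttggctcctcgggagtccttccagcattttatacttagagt
Both strands were searched for 3 short motifs. These were TCAAAG, the core bound by TCF/LEF factors such as the Tcf7l2 product, TAATTA, a core bound by many homeodomain factors, and ACANNTGT, a palindrome bound by Iroquois factors. The palindrome occurred once, in the Sim1 window, and is held by 6.31% of the 32851 RefSeq promoters of this length. TCAAAG, held by 13.8% of them, and TAATTA, held by 4.84%, occurred in none of the windows of these 4 genes, the second Tcf7l2 window included.

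Kif20a fell in both knockouts, from 2477 ± 194 (SD, n = 3) to 429 ± 67.1 (n = 3) normalized counts in the germline comparison (log2 fold change -2.54, limma with Benjamini-Hochberg adjustment, adjusted p = 0.00845). In the inducible comparison it fell by 0.70 on the log2 scale (limma, adjusted p = 0.0107), and no knockout library overlapped a control. The 10 pallium markers fixed for the labelled tissue were above 0 in every library of both tables, with summed levels of 21600 to 26610 in the germline wild-type libraries. The 3 germline knockout libraries stood apart from each other in that sum, at 12770, 48830 and 17230 for replicates 1, 2 and 3. The principal component that held 58.0% of the germline variance placed knockout replicate 2 at 91.2 and every other library between -38.4 and 3.84. Results are therefore also given without the libraries that decide them. The totals ranged from 13048716 to 15551274 normalized counts in the germline and from 24118520 to 24497307 in the inducible table. Whether libraries came from separate embryos is not stated in the labels, so the p-values below measure the spread between libraries.

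In the germline comparison, Irx1, Irx2, Irx3, Irx5, Tcf7l2 and Gbx2 were each far higher in knockout replicate 1 than in any other library. Knockout replicate 2 lay within the wild-type range for 7 of the 9 genes, and replicate 3 for 3, with 5 above it. The groups overlapped for every member except Irx2. Between the groups no tested member passed the thresholds given below. In bulk RNA of this kind, more cells of a type and more RNA per cell cannot be told apart.

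**Figure D1:**
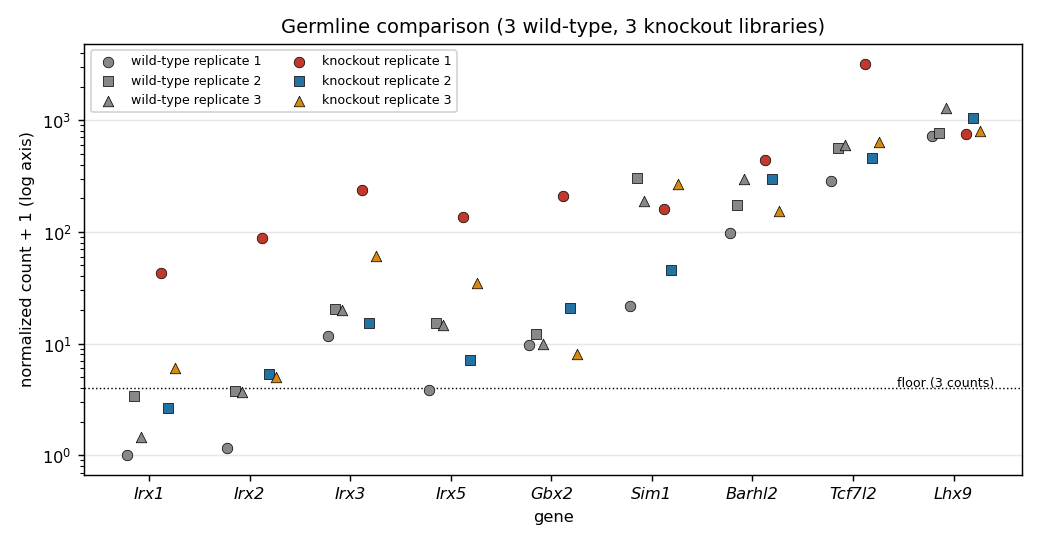
Normalized counts (plus 1, log axis) of the 9 genes in the 3 wild-type (grey) and 3 knockout (coloured) germline libraries, 1 point per library, with the floor of 3 counts dotted. Knockout replicate 1 (red) is the highest library for 7 of the 9 genes, while Lhx9 and Sim1 peak in a wild-type library.

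The Iroquois genes were low in wild-type libraries. Irx1 was listed at 0, 2.36 and 0.45 normalized counts in wild-type replicates 1, 2 and 3, and at 42.0, 1.67 and 5.03 in knockout replicates 1, 2 and 3. Irx2 was at 0.15, 2.72 and 2.68 in the wild-type and at 86.4, 4.34 and 4.03 in the knockout libraries. For both, every wild-type value was under the floor of 3 counts, below which levels were given no order. Against that floor, knockout replicate 1 was at least 14.0-fold higher for Irx1 and at least 28.8-fold higher for Irx2. Irx2 was the only member whose germline groups did not overlap with knockouts above, a pattern found in 5.9% of the 13938 genes tested, but it entered the test only through knockout replicate 1, and replicates 2 and 3 were at only 1.45 and 1.34 times the floor of 3.

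Irx3 and Irx5 differed from wild-type in knockout replicate 1 and, less so, in replicate 3. Irx3 was at 10.7, 19.4 and 19.0 normalized counts in wild-type libraries and at 237, 14.2 and 60.3 in the knockout libraries. Irx5 was at 2.87, 14.2 and 13.7 in the wild-type and at 135, 6.10 and 34.2 in the knockout libraries. Knockout replicate 1 thus held 14.5 times the wild-type mean of Irx3 and 13.1 times that of Irx5, and replicate 3 held 3.68 and 3.33 times. Replicate 2 lay within the wild-type range for both genes, so the groups overlapped. The linked genes Irx3 and Irx5 had the same order of the 3 knockout libraries, but so did Irx1 and Tcf7l2, which are not linked to them.

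Tcf7l2, the Wnt effector, was at 283, 560 and 593 normalized counts in wild-type libraries and at 3212, 453 and 638 in the knockout libraries. Knockout replicate 1 held 6.71 times the wild-type mean, and the other knockouts 0.947 and 1.33 times. Gbx2 was at 8.61, 11.3 and 8.83 in the wild-type and at 208, 19.7 and 7.05 in the knockout libraries. For Gbx2, knockout replicate 1 was 21.7 times the wild-type mean and replicate 2 was 2.06 times, whereas replicate 3 lay below every wild-type library. In Gbx2 the knockouts thus spread far more than the wild-type libraries, whose highest was 1.31 times their lowest.

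Barhl2 and Lhx9 were more even. Barhl2 was at 97.3, 173 and 297 normalized counts in wild-type libraries and at 443, 295 and 154 in the knockout libraries, of which only replicate 1 was above the wild-type range. Lhx9 was at 718, 766 and 1282 in the wild-type and at 748, 1049 and 794 in the knockout libraries, which all lay inside the wild-type range. Sim1 was at 20.7, 302 and 189 in the wild-type and at 158, 45.0 and 267 in the knockout libraries. The wild-type libraries alone spanned 14.6-fold for Sim1, more than for any other member with wild-type values above the floor, and enclosed all 3 knockouts.

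With limma on log2(normalized count + 1), 8 of the 9 genes reached the mean of 10 normalized counts set for testing. None passed a fold change of 1.5 with an unadjusted P of 0.05 in either direction, against 2.07% of all genes tested called higher and 0.667% called lower. The unadjusted P of the 8 genes lay at 0.0872 or above (limma). The log2 fold change was 2.41 (SE 1.23) for Irx2, 1.84 (SE 0.93) for Irx3, 1.76 (SE 1.11) for Irx5, 1.64 (SE 1.11) for Gbx2 and 1.10 (SE 0.71) for Tcf7l2. Their limma adjusted p-values lay between 0.779 and 0.788. Barhl2 was at 0.67 (SE 0.50), Sim1 at 0.21 (SE 1.06) and Lhx9 at -0.06 (SE 0.25), with limma adjusted p-values of 0.799, 0.967 and 0.961. The 95% interval for Lhx9 ran from -0.66 to 0.54 and that for Sim1 from -2.30 to 2.73. The median over the 8 genes was 1.37, beside -0.04 over all genes tested. With Irx2 at its bound it was also 1.37, which could not differ, as Irx2 lies above the median either way. Gbx2 lies above it too, and no median was taken without these genes. Irx2 and Gbx2 entered the test only through the knockouts, as their wild-type means were 1.85 and 9.57, and Irx1 did not enter. The fitted value of Irx2 depends on the added count and is no bound. With 3 against 3 libraries an exact two-sided permutation test cannot go below p = 0.1. Irx3, Irx5, Tcf7l2 and Gbx2 are also among the genes that the study itself listed as changed in these libraries, so their values here are no independent evidence of a direction.

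The fits turned on single libraries. Without knockout replicate 1 the log2 fold change dropped to 0.86 for Irx3, 0.73 for Irx5, 0.24 for Tcf7l2 and 0.30 for Gbx2, Irx2 no longer reached the mean of 10 counts, and none of the 7 genes tested passed the thresholds. Without knockout replicate 2 it was 2.84 for Irx3, 2.86 for Irx5, 3.06 for Irx2 and 1.65 for Tcf7l2. These 4 genes passed the thresholds, with limma adjusted p-values between 0.142 and 0.284, where 4.19% of all genes were called higher. Irx2 reached the mean of 10 counts in that fit only through knockout replicate 1. Without knockout replicate 3, 1 gene passed, Gbx2, at a log2 fold change of 2.65, where 4.43% of all genes were called higher.

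**Figure D2:**
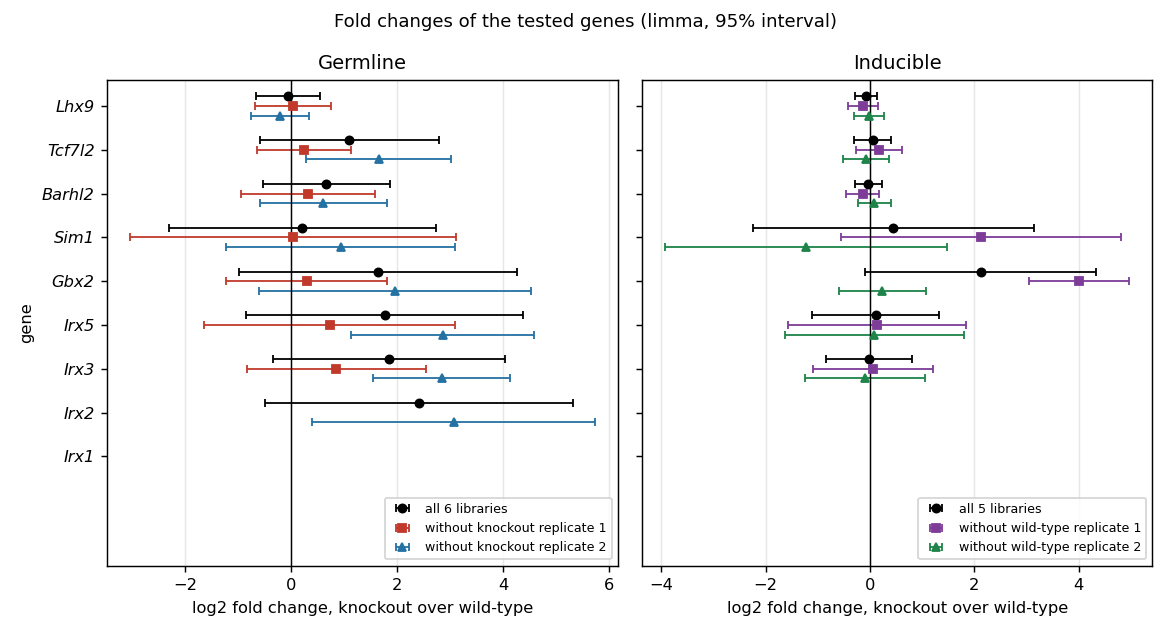
Log2 fold change of knockout over wild-type (x axis) for each tested gene (y axis), with 95% limma intervals as bars, for all libraries and without single libraries of the germline (left) and inducible (right) comparison. Germline intervals of Irx2, Irx3, Irx5 and Tcf7l2 lie above 0 without knockout replicate 2, and inducible Gbx2 lies at 0.23 or 4.01 depending on which control is left out; Irx1 was not tested, nor was Irx2 in the inducible comparison or without germline knockout replicate 1.

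The height of knockout replicate 1 was then set against all genes. To keep its own height from admitting a gene, genes were first kept where the other 5 libraries alone averaged 10 or more normalized counts, which leaves 7 members and drops Irx2 and Irx1. Knockout replicate 1 was the highest library for 5 of the 7 (Irx3, Irx5, Tcf7l2, Barhl2 and Gbx2), against 16.8% of these 13897 genes. For 4 of the 7 (the same without Barhl2) its value plus 1 was at least 2 times that of the next highest library, against 1.2% of genes, or 167 genes. This filter and the multiple of 2 were chosen after the values were seen. With the filter over all 6 libraries, which Irx2 passed only through knockout replicate 1, the counts were 6 of 8 against 17.2% and 5 of 8 against 1.38%, and the share of all genes was 3.56% at 1.5 times and 0.452% at 3 times. For knockout replicate 2 the share at 2 times was 1.37%, with no member among them. The ratio to the next highest library was 10.1 for Gbx2 and 16.4 for Irx2. The highest ratio among all genes tested was that of Shox2, a homeobox gene of the thalamus among other places, at 644 normalized counts against at most 22.1 in any other library. Olig3, a bHLH gene of thalamic progenitors, was at 451 against at most 32.4. The 10 highest ratios also included genes on none of the lists used here. These were Tnfrsf9 at 12.3, above Gbx2, and Fap, Pdlim3, Kcne3, Krt19 and Gabrp, from 6.43 down to 5.48.

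Other genes of the thalamus, ZLI and prethalamus were taken from a list of 17, of which 14 were tested. Rora, a nuclear receptor gene of thalamic neurons, rose past the thresholds with a log2 fold change of 1.09 (limma, adjusted p = 0.779), from 180, 185 and 237 normalized counts in the wild-type to 695, 374 and 294 in the knockout libraries. The other 13 did not pass, and none was called lower. With the filter on the other 5 libraries, knockout replicate 1 was the highest library for 11 of 13, and at least 2 times the next highest for 4, namely Olig3, Dbx1, Tal2 and Wnt3. Wnt3, a ligand gene, was at 15.89, 8.06 and 15.95 in the wild-type and at 179, 8.80 and 41.2 in the knockout libraries, the same order of knockouts as Irx3 and Irx5. Of 6 habenula and pretectum genes, 5 were tested, none passed, and 4 were highest in knockout replicate 1. Among them Otx2, a homeobox gene of forebrain and midbrain, was at 493, 968 and 939 in the wild-type and at 2180, 748 and 1004 in the knockout libraries. Of 15 hypothalamus genes, 8 were tested, none passed, and with that filter knockout replicate 1 was the highest library for 2 of 5.

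Lists for other regions and cell types moved between the same libraries. The summed level of the 9 patterning factors was 1142 to 2407 in the wild-type libraries and 5270, 1889 and 1963 in knockout replicates 1, 2 and 3. The 10 pallium markers, none called and none highest in knockout replicate 1, summed to 12770 in that library. Of 10 cranial mesenchyme markers, 9 were highest in knockout replicate 1, with sums of 5052 to 8833 in the wild-type against 21000, 617 and 10950 in the knockout libraries. The 13 neuronal genes, none of them called, summed to 50890 to 58080 in the wild-type and to 28460, 99950 and 33680 in the knockout libraries. Of 13 hypoxia and glycolysis genes, 10 rose past the thresholds (Slc2a1, Ldha, Pgk1, Pdk1, Vegfa, Bnip3, Ankrd37, P4ha1, P4ha2 and Slc16a3), and the list summed to 16850 to 17220 in the wild-type and to 57920, 81510 and 20400 in the knockout libraries. No gene of these 4 lists was at 0 in every library, and their part in the results for the patterning factors was not tested. Of the remaining lists, the cortical hem and choroid plexus list had 4 of 12 genes higher (Wnt8b, Rspo1, Rspo2 and Rspo3) and 1 lower (Ttr). En2, the only midbrain and hindbrain gene of 11 to be tested, was called higher. It was at 0.92, 0.72 and 0.4 in the wild-type libraries, all under the floor of 3 counts, and at 24.5, 22.9 and 20.1 in the knockout libraries. En2 thus entered the test only through the knockouts. The germline knockout allele keeps its inserted cassette, and the source of the reads assigned to En2 was not tested. Its values are therefore not read as a regional change. In the inducible comparison En2 was not tested, at 0 and 6.29 in the controls and 0.97, 0.914 and 1.06 in the knockouts. No gene of the ventral telencephalon list (10 tested) or the eye list (3 tested) passed.

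**Figure D3:**
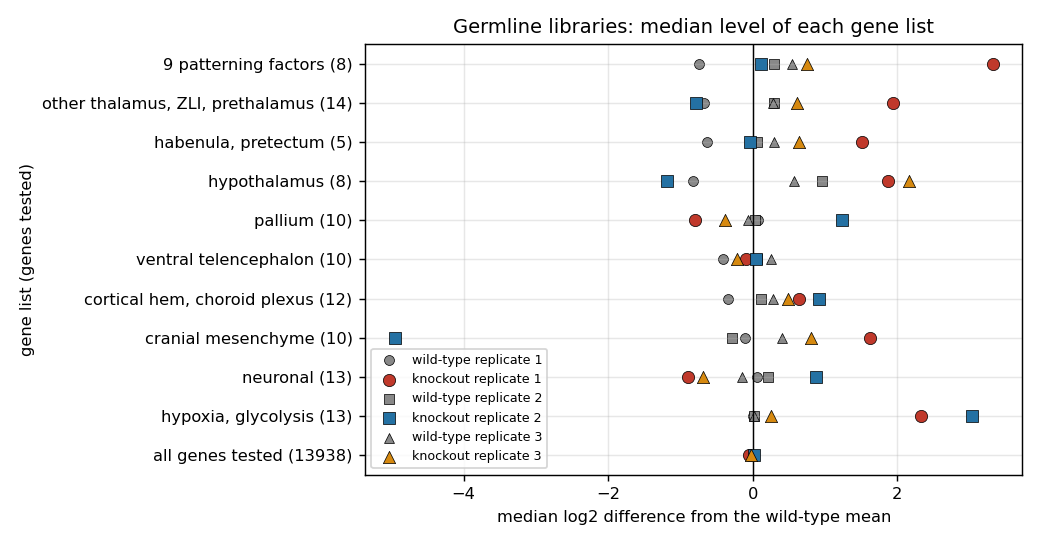
Median log2 difference from the wild-type mean (x axis) of the tested genes of each list (y axis, number tested in brackets) in each germline library, wild-type grey and knockout coloured. The patterning factors stand at 3.32, 0.116 and 0.746 in the 3 knockout libraries in the order of their replicate numbers, while the median of all genes lies between -0.0525 and 0.0165 in every library. The tested patterning factors include Irx2, which passed the filter only through knockout replicate 1 and was under the floor in every wild-type library.

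In the inducible comparison no tested patterning factor passed the thresholds. Mean levels of Tcf7l2, Lhx9 and Barhl2 differed by less than 0.1 on the log2 scale. Gbx2 and Sim1 spread widely within the controls. The highest patterning factor values were not gathered in one knockout library. The study lists Eif2s3y and Kdm5d, genes of the Y chromosome, as higher in these knockouts and without signal in the controls. Sex was therefore not matched between these groups, and its part in the values was not tested.

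Irx1 was at 1.97 and 2.13 normalized counts in the 2 controls and at 7.76, 9.25 and 8.50 in the 3 knockouts. It was the only member whose inducible groups did not overlap, with knockouts above, as for 10.4% of the genes tested, and its mean was at least 2.83-fold higher against the floor of 3 counts. It was under the mean of 10 counts and so not tested with limma, and the exact permutation p was 0.1, the smallest this design allows. Irx2, also not tested, was at 2.95 and 5.30 in the controls and at 13.6, 14.9 and 4.41 in the knockouts, which overlapped. Irx3 was at 45.3 and 40.6 in the controls and at 64.4, 43.3 and 26.9 in the knockouts, so the controls lay between the knockouts. Irx5 did likewise, with 18.7 and 18.1 in the controls and 30.2, 28.8 and 8.80 in the knockouts. The third knockout library was the lowest of all 5 for both of these linked genes, and also for the unlinked Tcf7l2.

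Tcf7l2 was at 1098 and 921 normalized counts in the controls and at 1055, 1235 and 862 in the knockouts. Lhx9 was at 1274 and 1378 in the controls and at 1176, 1188 and 1411 in the knockouts. Barhl2 was at 367 and 430 in the controls and at 362, 386 and 421 in the knockouts. The highest library of each of these genes was at most 1.43 times its lowest. Gbx2 was at 47.4 and 2.54 in the controls and at 41.7, 59.1 and 70.8 in the knockouts, so the second control alone stood apart. Sim1 was at 253 and 23.7 in the controls and at 27.6, 160 and 273 in the knockouts, with high and low libraries in both groups.

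**Figure D4:**
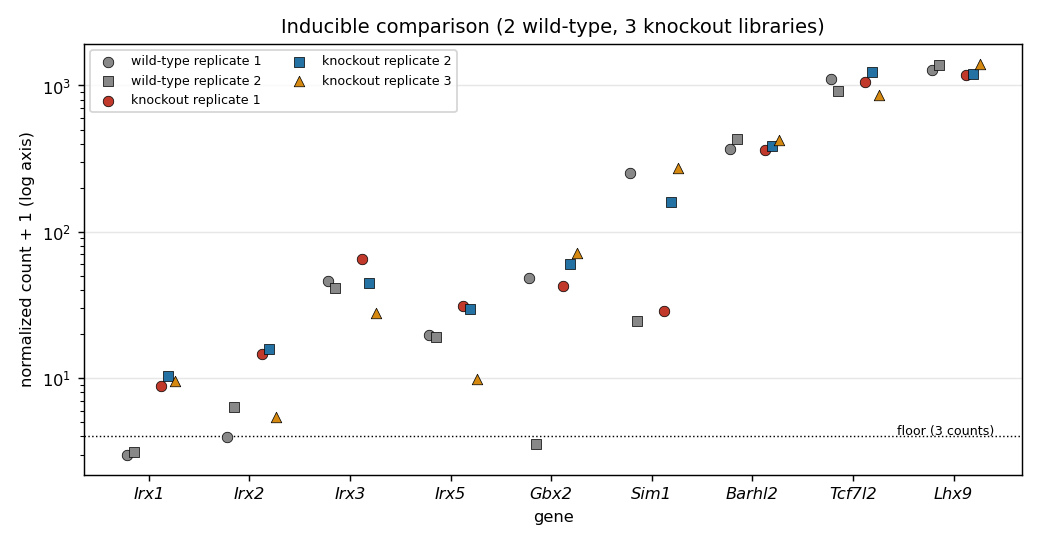
Normalized counts (plus 1, log axis) of the 9 genes in the 2 wild-type labelled control (grey) and 3 knockout (coloured) inducible libraries, 1 point per library, with the floor of 3 counts dotted. Lhx9, Tcf7l2 and Barhl2 lie close together, whereas Gbx2 is at 2.54 in the second control and Sim1 is low in the second control and the first knockout.

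With limma, 7 of the 9 genes were tested and none passed the thresholds, beside 0.802% of all genes tested called higher and 0.49% called lower. The median log2 fold change was 0.05 over these 7 genes and -0.00191 over all genes tested. The log2 fold change was -0.08 (SE 0.09, 95% interval -0.30 to 0.14) for Lhx9, -0.03 (SE 0.11, interval -0.29 to 0.23) for Barhl2 and 0.05 (SE 0.15, interval -0.30 to 0.40) for Tcf7l2. It was -0.02 (SE 0.35) for Irx3, 0.11 (SE 0.52) for Irx5 and 0.45 (SE 1.15) for Sim1, and the limma adjusted p-values of these 6 genes lay between 0.914 and 0.995. Gbx2 had a log2 fold change of 2.12 (SE 0.94, limma adjusted p = 0.825). Without the first control it was 4.01 (limma adjusted p = 0.103) and past the thresholds, as were 1.78% of all genes in the higher direction, and without the second it was 0.23. Sim1 moved from 2.13 without the first control to -1.23 without the second.

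For the germline and inducible comparisons side by side, the log2 fold change was 1.84 and -0.02 for Irx3, 1.76 and 0.11 for Irx5, 1.10 and 0.05 for Tcf7l2, and 1.64 and 2.12 for Gbx2. The comparisons share no library and the difference between them was not tested. Kif20a itself was at 59.4% to 65.1% of the control mean in the inducible knockouts and at 15.1% to 20.3% of the wild-type mean in the germline knockouts. The study places the remaining germline signal in the first exons and describes the full-length transcript as disrupted by the cassette. For the inducible remainder it names varied Cre levels as a possibility. The percentages therefore measure unlike things.

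Of the 17 other thalamus, ZLI and prethalamus genes, 14 were tested in the inducible comparison and 3 rose past the thresholds, Olig3, Gata2 and Wnt3, none of them at a limma adjusted p under 0.825. Olig3 was at 9.88 and 3.29 normalized counts in the controls and at 109, 175 and 8.45 in the knockouts, the third of which lay between the controls. Wnt3 was at 12.8 and 11.7 in the controls and at 58.5, 51.0 and 16.4 in the knockouts. Gata2, a zinc-finger gene of GABAergic progenitors in the rostral thalamus, was at 30.5 and 30.9 in the controls and at 39.8, 50.9 and 51.9 in the knockouts. Of the same list, Tal1, Tal2 and Helt had log2 fold changes of 0.02, 0.06 and -0.50. Gata3, not tested, averaged 7.68 in the controls and 4.97 in the knockouts. Of the 14 tested genes, 9 had a log2 fold change above 0. Irx2 and Irx5, like Olig3 and Wnt3, were higher in knockouts 1 and 2 than in knockout 3. None of the 5 tested habenula and pretectum genes or the 9 tested hypothalamus genes passed. Of 12 cortical hem and choroid plexus genes, none had a log2 fold change above 0, the median was -0.54, and Rspo1 and Foxj1 fell past the thresholds (log2 fold change -0.84 each, limma adjusted p = 0.825 and 0.71). Their sums were 12830 and 15360 in the controls and 12170, 10960 and 6198 in the knockouts, lowest in knockout 3 as were Irx3, Irx5 and Tcf7l2. Of the 13 hypoxia and glycolysis genes Ndrg1 alone rose past the thresholds (log2 fold change 0.86, limma adjusted p = 0.739). Beside these, the summed pallium markers were at 40450 and 44870 in the controls and 36600 to 46160 in the knockouts, and the mesenchyme markers at 12250 to 19470 and 14580 to 17360. The part of these lists in the levels of the patterning factors was not tested.

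Sim1 had its own order of libraries in both comparisons, and that order was close to the order of Otp, a homeobox gene of the same hypothalamic nuclei, which was picked out after its values had been seen. In the germline table Otp was at 2.82, 147.2 and 72.2 normalized counts in wild-type libraries and at 26.8, 8.78 and 146.7 in the knockout libraries, the same order over all 6 libraries as Sim1. In the inducible table Otp was at 246 and 8.70 in the controls and at 10.2, 112 and 230 in the knockouts, and only the top pair of libraries changed places against Sim1. Shh, which encodes the ventral midline and ZLI signal, was at 9.97, 145 and 49.0 in the germline wild-type libraries and at 182, 7.87 and 81.4 in the knockouts. Nkx2-1, a homeobox gene of hypothalamus and ventral telencephalon, was at 1902 and 79.0 in the inducible controls and at 372, 653 and 1911 in the knockouts. The second inducible control was the lowest of its 5 libraries for Sim1 and Gbx2, and for 3 of the 9 tested hypothalamus genes (Otp, Nkx2-1 and Pomc), while the first knockout was the lowest for another 3 (Sim2, Hmx2 and Hmx3). The 15 hypothalamus genes summed to 2282 and 170 in the inducible controls and to 509, 972 and 2362 in the knockouts, a spread carried by Nkx2-1 and Otp. Without these the other 13 summed to 134 and 82.6 in the controls and to 126, 206 and 221 in the knockouts. The 10 ventral telencephalon genes summed to 12640 and 7776 in the controls and to 8183, 9950 and 15880 in the knockouts. Among them Lhx6, a gene of medial ganglionic eminence neurons picked out after its values were seen, was at 666 and 99.9 in the controls and at 355, 356 and 920 in the knockouts. No gene of either list was at 0 in every library, and their part in the Sim1 and Gbx2 values was not tested.

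**Figure D5:**
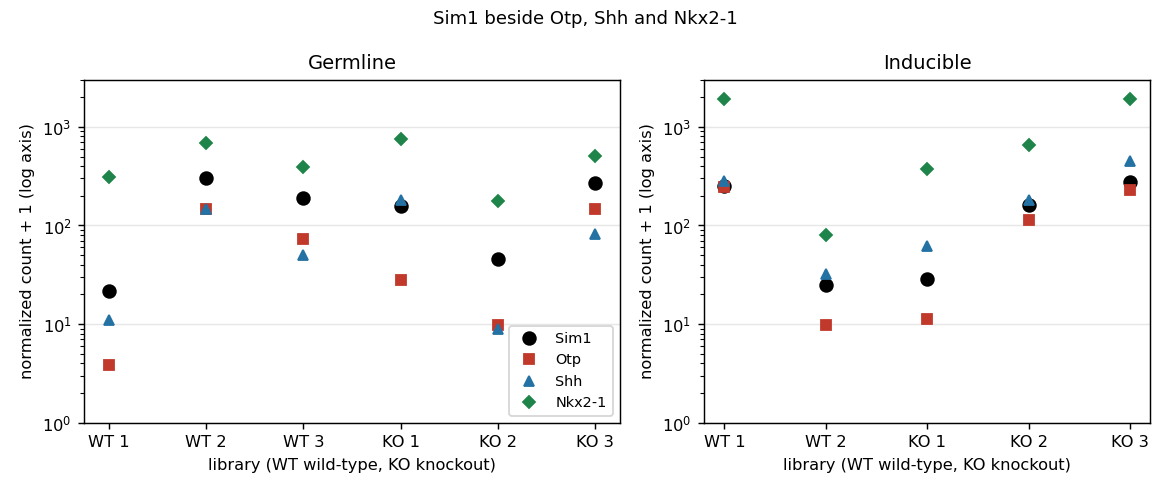
Normalized counts (plus 1, log axis) of Sim1, Otp, Shh and Nkx2-1 in each germline (left) and inducible (right) library, 1 point per gene and library. Sim1 and Otp share low libraries in both genotypes, such as germline wild-type replicate 1 (20.7 and 2.82) and inducible wild-type replicate 2 (23.7 and 8.70).

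Levels were compared between genes only after division by exon length (GENCODE M1). Per kb of exon in the germline wild-type libraries the order was Lhx9 (166 ± 56.5 normalized counts per kb, SD, n = 3), Barhl2 (72.5 ± 38.6), Tcf7l2 (54.8 ± 19.5), Sim1 (23.2 ± 19.3), Irx3 (6.99 ± 2.09), Irx5 (4.27 ± 2.67), Gbx2 (2.26 ± 0.348), Irx2 (0.560 ± 0.446) and Irx1 (0.454 ± 0.608). Among neighbours in this order, the ranges over libraries were separate only between Lhx9 and Barhl2 and between Gbx2 and Irx2, and the other neighbours were not distinguished. In the inducible controls the order of the 9 genes was the same, from 239 for Lhx9 to 0.995 normalized counts per kb for Irx1. In the germline knockouts Tcf7l2 stood first at 164 ± 176 per kb, a mean carried by replicate 1 at 368, ahead of Lhx9 at 156 ± 29.3.

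The genes most like the patterning factors were found by the root mean square difference between centred log2 profiles and the mean profile of the tested members. Over the 6 germline libraries and 8 members these were Dsc2 (0.329 on the log2 scale), Thbs1 (0.346) and Greb1 (0.369). Thbs1, which encodes a secreted matrix glycoprotein, was at 364, 568 and 714 normalized counts in wild-type libraries and at 2639, 345 and 807 in the knockout libraries, with the same peak in knockout replicate 1. Over the 5 inducible libraries and 7 members they were the histone genes Hist2h3c1 (0.0762) and Hist2h3c2 (0.0818), near-identical copies whose counts are uncertain, and Col6a3 (0.0896). The likeness follows the member mean, to which the genes with the largest spread contribute most.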

How the data were processed

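RNA-seq of E12.5 brain was analysed in 6 germline and 5 inducible libraries, grouped by their labels. The authors selected poly(A) RNA, aligned reads to mm9 with TopHat (1.2.0 in the submitters' processing notes), assigned reads to the exons of RefSeq genes, each read a single time per gene, and scaled them with edgeR. For either comparison the authors deposited this signal, normalized counts by gene. As fractions occur throughout, count models were not used, and equal scaling hides a change shared by most genes. No per-sample column was left unused (0).

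Genes averaging 10 or more normalized counts in a table were fitted as log2(value + 1) with limma 3.58.1 (lmFit, eBayes with trend, two-sided) in R 4.3.3, 13938 germline and 14081 inducible genes, with Benjamini-Hochberg adjustment. Fold changes are on that scale, which understates low genes. Calls used a fold change of 1.5 and an unadjusted P of 0.05, the thresholds of the study. Levels at or under 3 counts were taken as the floor. Reads behind a normalized count are not given, so no counting interval was made. Exact permutation tests used scipy 1.17.1. Scripts were tested on simulated data.

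The 9 genes, the 11 other lists (125 genes) and the tests were chosen with earlier results of these data known, and list results are counts and medians without a set test. Named genes were the 9 members, Kif20a, list genes past the thresholds and, per table, the 3 genes with the closest profile. Others (Shox2, Otp, Shh, Nkx2-1, Otx2, Lhx5, Lhx6, Foxb1, Foxa1, and list genes highest or lowest in a single library) were named after their values were seen. Alternatives changed the added count, filter, length scaling, normalization, trend, library weights, replicate block and single libraries.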

Additional observations from a re-analysis of the deposited data

How the results depend on the processing

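The count of patterning factors past the thresholds depended on the libraries more than on the scale. In the germline comparison it was 0, and 0 with an added count of 0.25 or 5, a mean of at least 50 counts, a per-length scale, no trend or the replicate block. It was 1 without a filter on low values (Irx1, at 2.11% of all genes called higher) and 1 after quantile normalization (Irx3, 2.53%). It was 5 with limma array weights (Irx2, Irx3, Irx5, Tcf7l2 and Gbx2, 4.02%) and 0 to 4 with single libraries left out. Irx2, part of the counts of 5 and 4, passed the filter only through knockout replicate 1. In the inducible comparison the count of patterning factors was 0, and 1 without the filter (Irx1, log2 fold change 1.64, limma adjusted p = 0.62). It was 1 with array weights (Gbx2) and 0 to 1 with single libraries left out. Of the other lists together, 17 genes passed in the germline comparison, 39 with array weights and 7 to 50 with single libraries left out (7 without wild-type replicate 1, 8 without wild-type replicate 2, 8 without knockout replicate 1, 50 without knockout replicate 2). In the inducible comparison 6 passed, 10 without the filter, 3 at a mean of at least 50 counts and 5 to 18 with single libraries left out (18 without wild-type replicate 1).

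Leaving out single libraries turned the direction of Lhx9 (log2 fold change -0.21 to 0.20) and Sim1 (-0.94 to 0.96) in the germline comparison, and of Irx3 (-0.32 to 0.29), Irx5 (-0.18 to 0.65), Tcf7l2 (-0.078 to 0.18), Barhl2 (-0.14 to 0.082) and Sim1 (-1.23 to 2.13) in the inducible comparison. Kif20a stayed at -2.66 to -2.44 (limma adjusted p 0.00113 to 0.185) and -0.74 to -0.67 (0.0153 to 0.193), and in the inducible comparison was -0.70 without the trend (limma adjusted p = 0.147). Replicate numbers were shared between groups, but deviations of same-numbered libraries correlated at -0.116, 0.306 and 0.247 in the germline and -0.352 and -0.0513 in the inducible table, so they were not taken as pairs. With the replicate block, inducible Irx3 was 0.29, Sim1 -0.22 and Kif20a -0.67 (limma adjusted p = 0.3), and no patterning factor passed in either comparison. The cause of these shifts was not tested.

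Over all genes, 289 were higher and 93 lower in the germline comparison, 560 and 484 with array weights, and 115 to 617 and 42 to 642 with single libraries left out. In the inducible comparison 113 were higher and 69 lower, 212 and 145 without the filter and 39 and 33 at a mean of at least 50 counts. Values at or under 3 counts limit Irx1 and Irx2 most.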

Other observations

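Foxb1, a forkhead gene of the mammillary hypothalamus, and Foxa1, a forkhead gene of the ventral midline, were picked out of the hypothalamus list after their values had been seen. In the inducible table Foxb1 was at 0.978 and 3.17 normalized counts in the controls and at 21.4, 33.8 and 1.35 in the knockouts (log2 fold change 2.09, limma adjusted p = 0.86). Foxa1 was at 3.94 and 5.31 in the controls and at 27.3, 28.0 and 2.43 in the knockouts (log2 fold change 1.34, limma adjusted p = 0.882). Both were thus higher in the first and second knockout and not in the third. Olig3, Wnt3 and Irx2 were also high in the first and second knockout. Other genes of the hypothalamus list went the other way. Among the inducible knockouts, Otp, Nkx2-1, Nkx2-4, Rax, Hmx2, Hmx3 and Nr5a1 were highest in the third. Hmx3, for instance, was at 0, 6.25 and 33.3 there, and Rax at 8.62, 13.6 and 42.9. In the germline table Foxb1 was at 0.13, 10.6 and 5.84 in the wild-type and at 74.2, 3.42 and 20.1 in the knockout libraries. Foxa1 was there at 0.23, 0.68 and 3.58 in the wild-type and at 50.3, 0 and 10.1 in the knockout libraries. Neither gene passed the thresholds in either comparison.

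Otx2 and Lhx5 were lower in every inducible knockout than in either control, a pattern held by 12.2% of the genes tested. Otx2 was at 1753 and 1600 normalized counts in the controls and at 1366, 1546 and 1297 in the knockouts (log2 fold change -0.26, under the fold change of 1.5). Lhx5, a LIM homeobox gene of the prethalamus and cortical hem region, was at 877 and 692 in the inducible controls and at 456, 585 and 636 in the knockouts (log2 fold change -0.49, limma adjusted p = 0.825), also short of the fold change threshold.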
